A study of Arabidopsis with 12 samples.

Results

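Core and linker histone genes were followed in the transcriptome of Arabidopsis seedlings with and without the tyrosine phosphatase mutation *aph-1* and with and without abscisic acid (ABA), the plant hormone of water stress and seed dormancy. The genes were taken by their description in the deposited gene table, which had to contain "histone superfamily" or a histone name (H1, H2, H3, H4 or histone 3) and none of the words acetyl, methyl, kinase and chaperone. This gave 48 of the 33559 genes in the table. They were 1 linker histone gene (H1), 12 *HTA* genes for H2A and its variants, 10 *HTB* genes for H2B, 14 *HTR* genes for H3 and its variants and 8 genes for H4. The other 3 members are described as histone superfamily but are not histones. They are *LEC1* (AT1G21970), a subunit of the NF-Y transcription factor, *MHF1* (AT5G50930), a DNA repair gene, and AT5G19490, which has no symbol. By chromosome, 13 members lie on chromosome 1, 5 on chromosome 2, 10 on chromosome 3, 4 on chromosome 4 and 16 on chromosome 5.

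Histones wrap DNA into nucleosomes, with H2A, H2B, H3 and H4 in the core and H1 on the linker DNA between nucleosomes. The replication-linked forms, such as H3.1, H2A, H2B and H4, are made mainly in S phase, so their mRNAs are abundant where cells divide, in the root and shoot meristems and in young leaves. Replacement variants such as H3.3 and H2A.Z are also made outside S phase and exchange into chromatin independently of replication. CENH3 marks centromeres, H2A.W marks heterochromatin, and H2A.X carries the phosphorylation mark of DNA damage. Plant histone mRNAs are polyadenylated, unlike most of those of animals.

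Whole seedlings of 14 days were sequenced in 4 groups of 3 libraries, which were *aph-1* with ABA for 6 h, untreated *aph-1*, wild type (WT, Col-0) with ABA for 6 h and untreated WT. The ABA dose is labelled as 50 micromole, with no volume. The *aph-1* line (Salk_120974) is a single T-DNA line with the insertion in the promoter of *APH*, and the sources used here do not say whether untreated seedlings received a mock solution. The table holds 1 value per gene and group, in FPKM, fragments per kilobase of gene corrected for depth. With no value per library there is no SD, no standard error and no test, the depth is unknown, and each difference below is a difference between 2 group values that has no replicate check. Levels are given in FPKM. Differences are log2 ratios of FPKM with 0.1 added to each value, and a gene is counted as higher or lower in a comparison when the ratio reaches 2-fold, which is 1 on the log2 scale. In whole seedlings, fewer dividing cells and less histone mRNA per cell cannot be told apart.

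A total of 43 members had a mean of at least 1 FPKM over the 4 groups and entered the counts, among 19647 such genes in the table. The 5 members below that level were *HTA4* (AT4G13570), an H2A.Z-type gene at 0.701 to 0.877 FPKM, *HTB8* (AT1G08170), at up to 0.103 FPKM, *HTR15* (AT5G12910), at up to 0.114 FPKM, *LEC1*, at up to 0.0169 FPKM, and the male-gamete H3 gene *HTR10* (AT1G19890), listed at 0 in the 4 groups. *APH* (AT3G44620) was at 86.9 FPKM in ABA-treated *aph-1*, 83.6 FPKM in untreated *aph-1*, 99.0 FPKM in ABA-treated WT and 95.9 FPKM in untreated WT, with both *aph-1* values below both WT values, at 0.877 of WT with ABA and 0.871 without. The whole-gene level does not check the insertion. The authors report a transcript in *aph-1* that joins T-DNA to the *APH* coding region. They state that it may give a truncated APH or one without function. The sample titles call this line KO. The seedling label was checked against marker genes. The leaf gene *RBCS1A* ranged from 3952 to 12404 FPKM and the root hair gene *EXPA7* from 19.1 to 23.4 FPKM, whereas the seed storage gene *CRA1* stayed at or under 0.208 FPKM and the pollen gene *VGD1* at or under 0.0251 FPKM. The summed FPKM of all genes was 1113654 in ABA-treated *aph-1* and 1027611 in untreated *aph-1*, against 1119237 in ABA-treated WT and 1093168 in untreated WT. The 48 members made up 0.614% of it in ABA-treated *aph-1* and 0.793% in untreated *aph-1*, and 0.624% in ABA-treated WT and 0.834% in untreated WT.

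With ABA, the histone genes were mostly at lower levels, by amounts that were mostly less than 2-fold. In WT, 34 of the 43 members (79.1%) were below their untreated level, beside 49.7% of all 19647 genes, and the median log2 ratio was −0.50, beside 0.00 over all genes. In *aph-1*, 29 of the 43 (67.4%) were below it, beside 50.8% of all genes, and the median was −0.30, beside −0.01. Past the 2-fold limit in WT, 7 members (16.3%) were lower and 2 (4.65%) were higher, against a background of 12.2% lower and 11.5% higher among all genes, so the count of lower members is close to the background and the shift lies in the smaller ratios. In *aph-1*, 0 members were at least 2-fold lower and 3 (6.98%) were higher, against a background of 10.1% lower and 11.8% higher. The 7 members that were at least 2-fold lower with ABA in WT had log2 ratios down to −1.16 there and between −0.86 and −0.62 in *aph-1*, so they sit just past the limit in 1 genotype and short of it in the other.

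**Figure D1:**
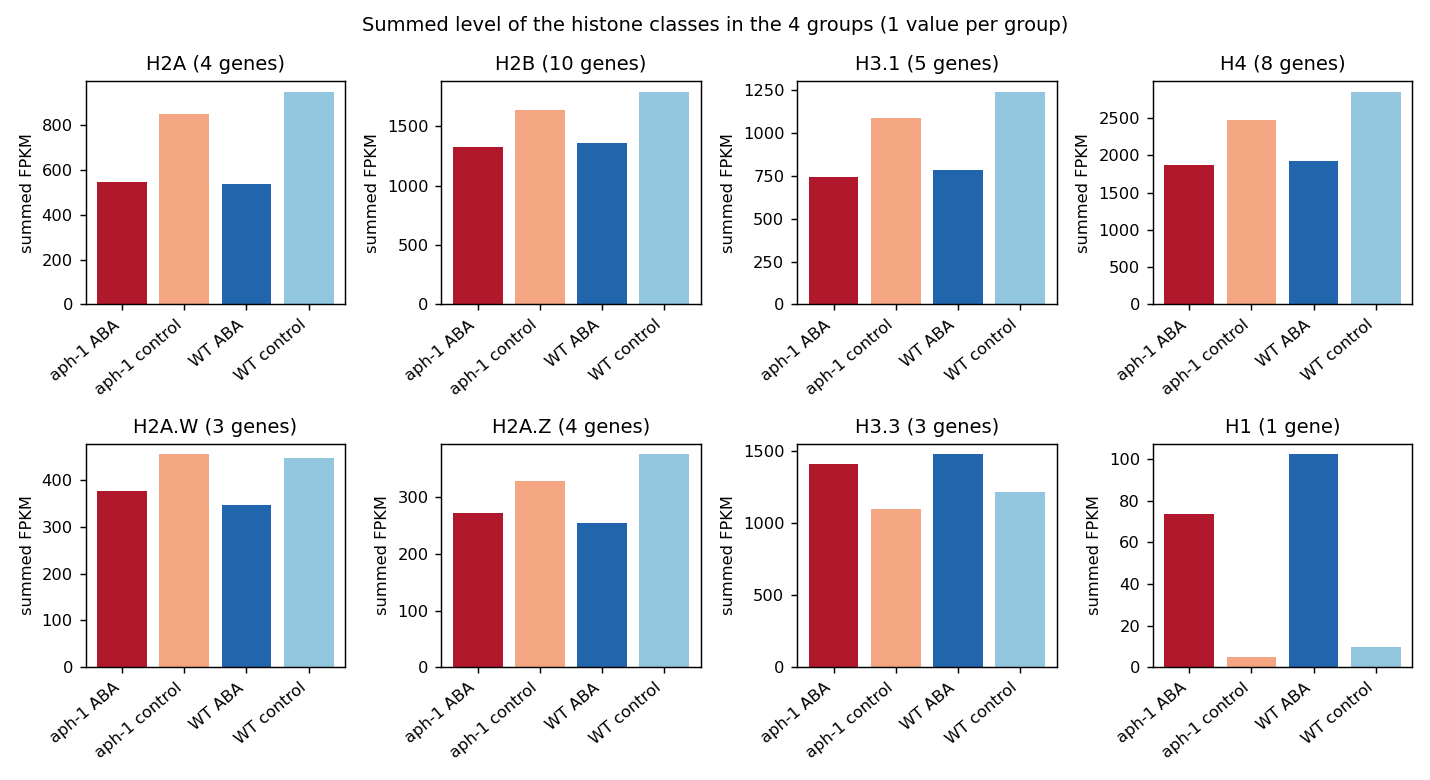
Summed FPKM of 8 histone classes (vertical axes, from 0, each panel with its own scale) in the 4 groups, 1 bar per group with no error bar because each group has 1 value. The bars of H2A, H2B, H3.1 and H4 are shorter with ABA in both genotypes, those of H3.3 are taller, and H1, here the single gene *H1.3*, stands at 73.8 and 102 FPKM with ABA.

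The contrast was clearest within H3. The 5 H3.1 genes, which supply S phase, summed to 744 FPKM in ABA-treated *aph-1* and 1083.9 FPKM in untreated *aph-1*, and to 782 FPKM in ABA-treated WT and 1239.6 FPKM in untreated WT. The 3 genes of the replacement form H3.3 summed to 1408 FPKM in ABA-treated *aph-1* and 1094 FPKM in untreated *aph-1*, and to 1475 FPKM in ABA-treated WT and 1217 FPKM in untreated WT. H3.1 was thus lower and H3.3 higher with ABA in both genotypes, with ratios of the sums of 0.686 and 1.29 in *aph-1* and 0.631 and 1.21 in WT. With each group rescaled to the same summed FPKM, these ratios were 0.633 and 1.19 in *aph-1* and 0.616 and 1.18 in WT. H3.1 made up 34.6% of the summed H3.1 and H3.3 level in both ABA-treated groups, against 49.8% in untreated *aph-1* and 50.5% in untreated WT. These shares do not depend on how the 4 groups were scaled against each other, since both classes are in the same group value. They can depend on how the 3 libraries within a group were combined, which is not stated.

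The log2 ratios of the H3.1 and H3.3 genes did not overlap in either genotype. For H3.1 they lay between −0.76 and −0.38 in *aph-1* and between −1.07 and −0.59 in WT. For H3.3 they lay between 0.13 and 0.54 in *aph-1* and between 0.12 and 0.45 in WT. Among the H3.1 genes, *HTR2* (AT1G09200) had the highest mean level, at 288 FPKM in ABA-treated and 439.7 FPKM in untreated *aph-1*, while WT had 295 FPKM with ABA and 444 FPKM without. *HTR1* (AT5G65360) was at 229 and 315 FPKM in ABA-treated and untreated *aph-1*, and at 265 and 402 FPKM in ABA-treated and untreated WT. *HTR9* (AT5G10400) was at 142 and 185 FPKM in ABA-treated and untreated *aph-1*, and at 138 and 219.6 FPKM in ABA-treated and untreated WT. The ABA-treated groups were the lower ones for each of these genes, by less than 2-fold. *HTR13* (AT5G10390), which lies directly beside *HTR9*, was at 29.1 and 49.3 FPKM in ABA-treated and untreated *aph-1*, and at 34.7 and 73.0 FPKM in ABA-treated and untreated WT, and was at least 2-fold lower with ABA in WT (log2 ratio −1.07). *HTR3* (AT3G27360) was also past 2-fold in WT, at 56.1 and 95.2 FPKM in ABA-treated and untreated *aph-1*, and at 49.4 and 101 FPKM in ABA-treated and untreated WT. Its locus overlaps *SDH2-1*, a respiratory gene that was higher with ABA, at 119 and 55.0 FPKM in ABA-treated and untreated *aph-1* and at 117 and 65.3 FPKM in ABA-treated and untreated WT, and whether reads are shared was not tested.

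The H3.3 genes showed the opposite order of groups. *HTR8* (AT5G10980) was at 467 and 322 FPKM in ABA-treated and untreated *aph-1*, and at 456 and 334 FPKM in ABA-treated and untreated WT. *HTR5* (AT4G40040) was at 613 and 473 FPKM in ABA-treated and untreated *aph-1*, and at 679 and 570.3 FPKM in ABA-treated and untreated WT. Its direct neighbour *HTR4* (AT4G40030) differed less, at 327 and 299.7 FPKM in ABA-treated and untreated *aph-1*, and at 339.9 and 312 FPKM in ABA-treated and untreated WT. None of the 3 was 2-fold higher, and the highest log2 ratio was 0.54, of *HTR8* in *aph-1*. *HTR5* had the highest mean level of all 48 members.

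**Figure D2:**
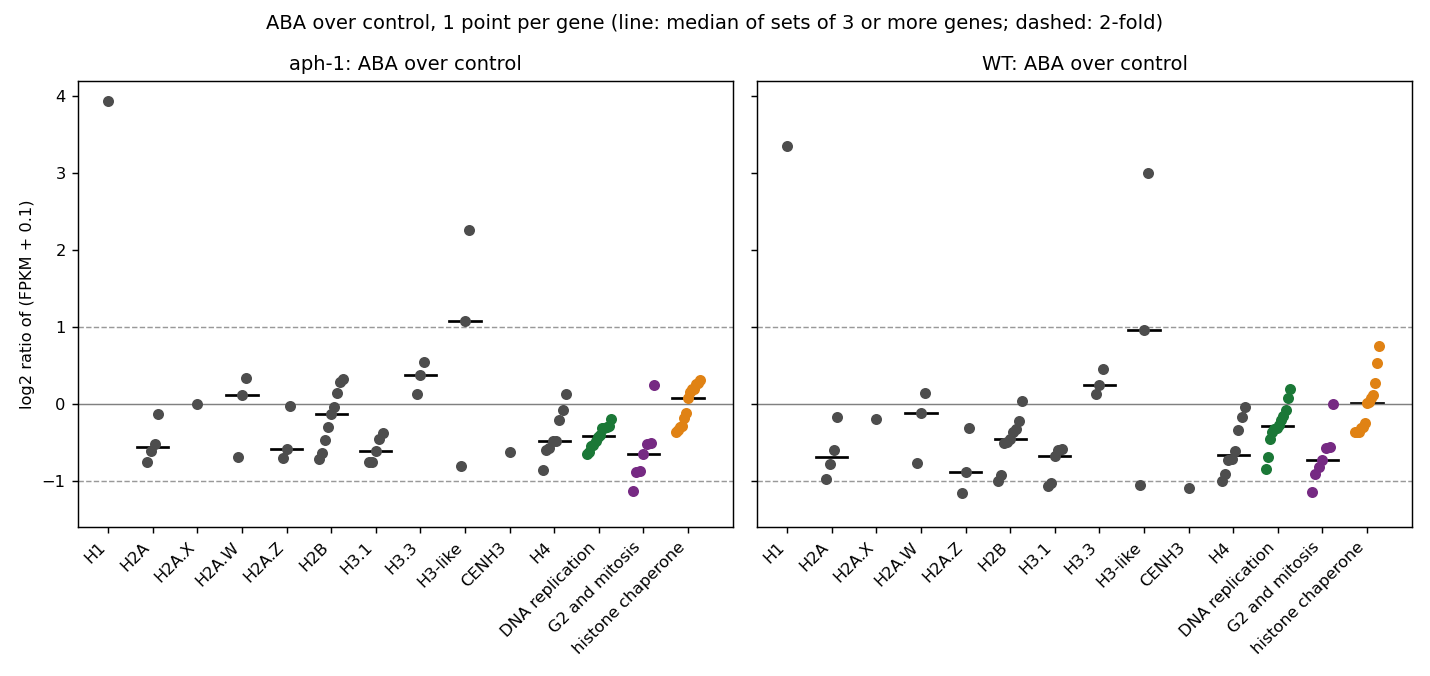
Log2 ratio of ABA over control (vertical axis, FPKM with 0.1 added) for each gene with a mean of at least 1 FPKM, by histone class and for 3 other gene lists, in *aph-1* (left) and WT (right), with medians as lines and 2-fold as dashed lines. In WT the H2A, H2A.Z, H3.1 and H4 points lie below 0 and the H3.3 points above it, and *H1.3* is the highest point at 3.94 in *aph-1* and 3.36 in WT.

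The other core histones of replication had lower values with ABA as well. The 4 H2A genes summed to 547 FPKM in ABA-treated and 851 FPKM in untreated *aph-1*, and to 538 FPKM in ABA-treated and 948 FPKM in untreated WT, the lowest ratio of sums among the classes of more than 1 gene in both genotypes (0.643 and 0.567). *HTA10* (AT1G51060) was at 282 and 476 FPKM in ABA-treated and untreated *aph-1*, and at 283 and 559 FPKM in ABA-treated and untreated WT, with log2 ratios of −0.76 and −0.98. The ratio was smaller for *HTA13* (AT3G20670), −0.61 in *aph-1* and −0.78 in WT, and for *HTA2* (AT4G27230), −0.52 and −0.60. The locus of *HTA13* overlaps AT3G20680, and whether reads are shared was not tested. AT3G20680 was at 32.8 and 46.3 FPKM in ABA-treated and untreated *aph-1*, and at 28.8 and 45.9 FPKM in ABA-treated and untreated WT. *HTA1* (AT5G54640), a gene known for its part in Agrobacterium transformation of roots, was nearly level, at 51.4 and 56.3 FPKM in ABA-treated and untreated *aph-1* and at 52.0 and 58.5 FPKM in ABA-treated and untreated WT.

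The 10 H2B genes spread more widely. *HTB1* (AT1G07790) was at 91.8 and 151 FPKM in ABA-treated and untreated *aph-1*, and at 83.9 and 168 FPKM in ABA-treated and untreated WT, where it reached 2-fold. *HTB5* (AT2G37470) had log2 ratios of −0.64 in *aph-1* and −0.93 in WT. The most abundant H2B gene, *HTB4* (AT5G59910), was at 448 and 490.5 FPKM in ABA-treated and untreated *aph-1*, and at 467 and 544 FPKM in ABA-treated and untreated WT. *HTB3* (AT2G28720) was higher with ABA by little in *aph-1*, at 86.1 and 78.0 FPKM in ABA-treated and untreated seedlings. In WT it was nearly level, at 104 and 102 FPKM in ABA-treated and untreated seedlings, the sign there changing with the scaling. *HTB6* (AT3G53650) and *HTB10* (AT5G02570), at lower levels, had ratios of opposite sign, 0.28 and 0.32 in *aph-1* and −0.37 and −0.50 in WT. The locus of *HTB10* overlaps that of *HTA12*, at 22.6 to 28.1 FPKM, and whether reads are shared was not tested. Over the 9 H2B genes counted, the median was −0.13 in *aph-1* and −0.45 in WT. The locus of *HTB9* (AT3G45980), at 229.9 and 283 FPKM in ABA-treated and untreated *aph-1* and at 228 and 326 FPKM in ABA-treated and untreated WT, overlaps *EXLA1*, an expansin-like gene at 124 and 11.9 FPKM in ABA-treated and untreated *aph-1* and at 149 and 19.5 FPKM in ABA-treated and untreated WT, and whether reads are shared was not tested.

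The 8 H4 genes encode the same protein, yet their values with ABA differed from gene to gene. Their log2 ratios ran from −0.86 to 0.13 in *aph-1* and from −1.01 to −0.04 in WT. At the low end, AT3G46320 was at 165 and 301 FPKM in ABA-treated and untreated *aph-1*, and at 159 and 320.5 FPKM in ABA-treated and untreated WT. AT5G59970 was at 188 and 285 FPKM in ABA-treated and untreated *aph-1*, and at 182 and 343 FPKM in ABA-treated and untreated WT. At the other end, AT3G53730 was at 324 and 295 FPKM in ABA-treated and untreated *aph-1*, and at 369 and 379 FPKM in ABA-treated and untreated WT. The H4 gene with the highest mean, AT5G59690, was at 361 and 506 FPKM in ABA-treated and untreated *aph-1*, and at 352 and 577 FPKM in ABA-treated and untreated WT. AT3G46320 and AT3G53730 were at similar levels in untreated *aph-1*, 301 and 295 FPKM, and were at 165 and 324 FPKM in ABA-treated *aph-1*. As a class, H4 summed to 1874 FPKM in ABA-treated and 2479 FPKM in untreated *aph-1*, and to 1923 FPKM in ABA-treated and 2855 FPKM in untreated WT. The sources used here do not say how reads that map to several H4 or H3.1 genes were counted, so the split among near-identical genes is less certain than the class sum.

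The H2A variants did not move as a block. The 3 H2A.Z genes counted were all lower with ABA in both genotypes, beside 50.8% of all genes in *aph-1* and 49.7% in WT. In *aph-1*, however, *HTA9* was nearly level, with a log2 ratio of −0.03. The median log2 ratio of the 3 was −0.59 in *aph-1* and −0.89 in WT, so this replacement variant did not share the direction of H3.3. The ratio of the sums over the 4 H2A.Z members was 0.830 in *aph-1* and 0.678 in WT. Of the H2A.Z genes, which mark the first nucleosomes of genes and respond to temperature in plants, *HTA8* (AT2G38810) was at 15.6 and 25.5 FPKM in ABA-treated and untreated *aph-1*, and at 13.2 and 29.7 FPKM in ABA-treated and untreated WT, which is at least 2-fold lower with ABA in WT (log2 ratio −1.16). *HTA11* (AT3G54560) was at 85.0 and 128 FPKM in ABA-treated and untreated *aph-1*, and at 75.4 and 139.8 FPKM in ABA-treated and untreated WT. *HTA9* (AT1G52740), the most abundant of them, was at 172 and 175 FPKM in ABA-treated and untreated *aph-1*, and at 166 and 206 FPKM in ABA-treated and untreated WT. The locus of *HTA9* overlaps AT1G52750, at 3.36 to 7.40 FPKM, and whether reads are shared was not tested. Among the H2A.W genes of heterochromatin, *HTA6* (AT5G59870) was lower with ABA, at 188 and 302 FPKM in ABA-treated and untreated *aph-1* and at 158 and 270.3 FPKM in ABA-treated and untreated WT. *HTA7* (AT5G27670) was higher, at 164 and 129.8 FPKM in ABA-treated and untreated *aph-1* and at 163 and 148 FPKM in ABA-treated and untreated WT. *HTA12* (AT5G02560), the least abundant H2A.W gene, was at 24.6 and 22.6 FPKM in ABA-treated and untreated *aph-1*, and at 25.8 and 28.1 FPKM in ABA-treated and untreated WT. The H2A.X gene *HTA5* (AT1G08880) was at 191.8 and 192.1 FPKM in ABA-treated and untreated *aph-1*, and at 189.7 and 218 FPKM in ABA-treated and untreated WT.

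The linker histone gene *H1.3* (AT2G18050) had the highest log2 ratio of the members in both genotypes, with 0.1 FPKM added. It encodes a short H1 variant known to be induced by drought and low light and to be present in guard cells. It was at 73.8 FPKM in ABA-treated and 4.72 FPKM in untreated *aph-1*, while WT had 102 FPKM with ABA and 9.87 FPKM without, a ratio of FPKM values of 15.6 in *aph-1* and 10.4 in WT. Without the added 0.1 FPKM, the ratio of *HTR14* in WT was slightly higher, at 10.8. The main linker histone genes *H1.1* (AT1G06760) and *H1.2* (AT2G30620) are described as winged-helix proteins and are not among the members. *H1.1* was at 424 and 311 FPKM in ABA-treated and untreated *aph-1*, and at 438 and 333 FPKM in ABA-treated and untreated WT, and *H1.2* had log2 ratios of 0.31 in *aph-1* and 0.12 in WT. Summed over the 3 H1 genes, the level was 735 FPKM in ABA-treated and 507 FPKM in untreated *aph-1*, and 799 FPKM in ABA-treated and 579.7 FPKM in untreated WT, of which *H1.3* is the smallest part in each group.

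Of the H3 genes outside H3.1 and H3.3, 2 were higher with ABA from very low levels. *HTR14* (AT1G75600) was at 2.49 FPKM in ABA-treated and 0.441 FPKM in untreated *aph-1*, while WT had 2.73 FPKM with ABA and 0.253 FPKM without. *HTR6* (AT1G13370) was at 1.53 FPKM in ABA-treated and 0.670 FPKM in untreated *aph-1*, while WT had 1.99 FPKM with ABA and 0.976 FPKM without, with log2 ratios of 1.08 and 0.96 on either side of the 2-fold limit. At these levels the added 0.1 FPKM and the unknown depth weigh on the ratio. The centromeric H3 gene *HTR12* (AT1G01370) was at 5.44 FPKM in ABA-treated and 8.44 FPKM in untreated *aph-1*, while WT had 4.01 FPKM with ABA and 8.66 FPKM without, and it was at least 2-fold lower with ABA in WT.

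**Figure D3:**
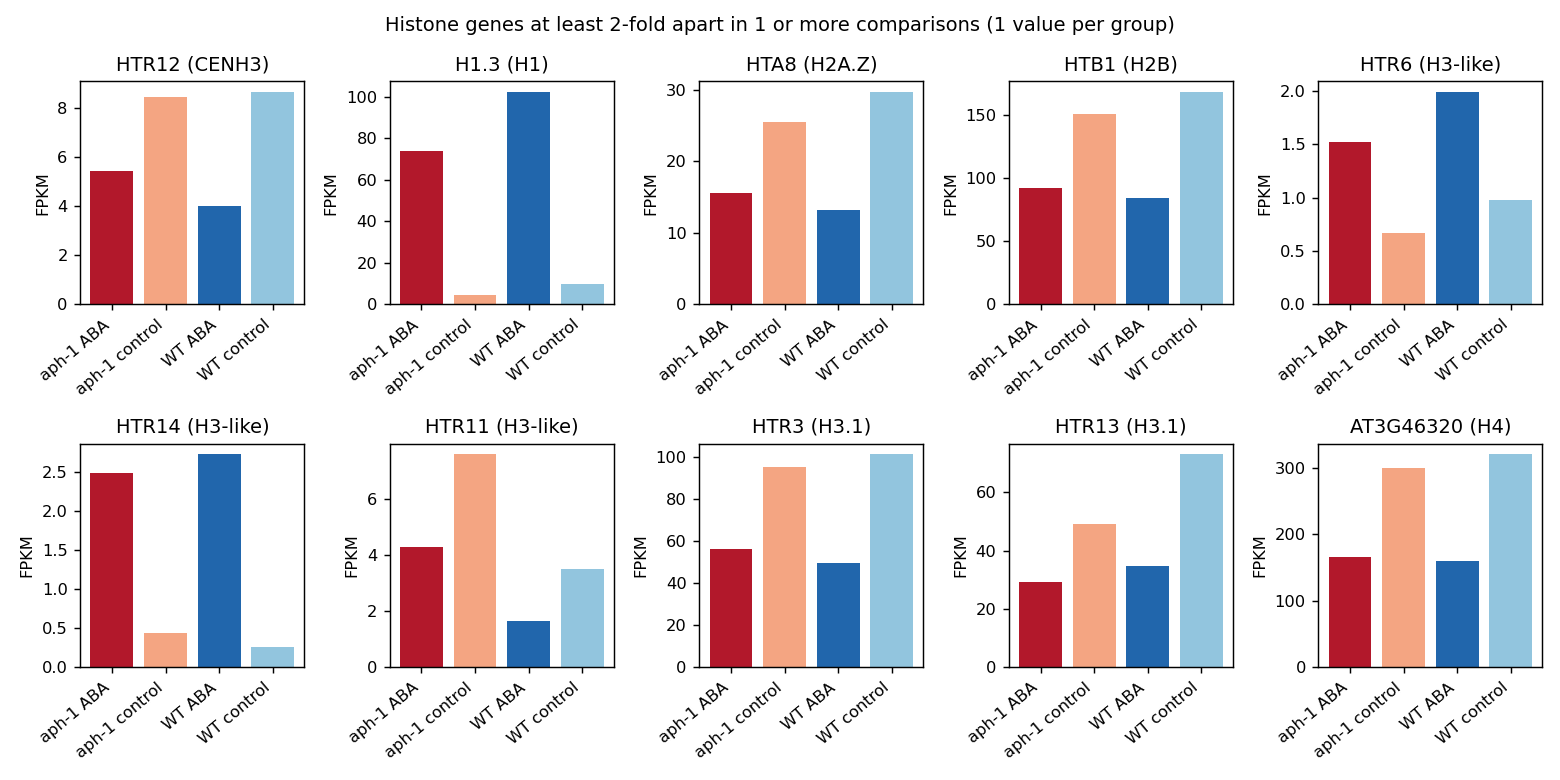
FPKM (vertical axes, from 0, each panel with its own scale) in the 4 groups of the 10 histone genes whose ratio reached 2-fold in 1 or more of the 4 comparisons, 1 bar per group with no error bar. *H1.3*, *HTR6* and *HTR14* are taller in the ABA-treated groups, the other 7 are shorter, and *HTR11* is the gene with taller bars in *aph-1* than in WT in both conditions.

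Other genes of DNA replication and cell division were read from lists of known genes. The 12 replication genes had a median log2 ratio with ABA of −0.42 in *aph-1* and −0.29 in WT. In *aph-1* all 12 were below their untreated level, beside 50.8% of all genes. In WT 10 of the 12 (83.3%) were, beside 49.7% of all genes, and *MCM4* and *MCM5* were higher, at 0.19 and 0.07. In either genotype 0 of 12 reached 2-fold. The background was 10.1% lower and 11.8% higher in *aph-1*, and 12.2% lower and 11.5% higher in WT, so 0 of 12 is not read as a result. *PCNA1*, the sliding clamp of the replication fork, was at 27.1 and 42.7 FPKM in ABA-treated and untreated *aph-1*, and at 22.1 and 39.7 FPKM in ABA-treated and untreated WT. The ratios of *PCNA2* were −0.55 in *aph-1* and −0.70 in WT, those of the ribonucleotide reductase gene *RNR1* were −0.54 and −0.37, and those of the origin-licensing gene *CDC6* were −0.40 and −0.46. Of 7 genes of G2 and mitosis, 6 (85.7%) were lower with ABA in each genotype, beside 50.8% of all genes in *aph-1* and 49.7% in WT. The median of the 7 was −0.65 in *aph-1* and −0.73 in WT. Past 2-fold in both was 1 of the 7 (14.3%), the cyclin gene *CYCB1;1*, against a background of 10.1% lower in *aph-1* and 12.2% in WT. It was at 4.76 and 10.6 FPKM in ABA-treated and untreated *aph-1* and at 4.72 and 10.6 FPKM in ABA-treated and untreated WT. The 13 histone chaperone genes, whose products deliver histones to DNA, were centred on 0, with a median of 0.08 in *aph-1* and 0.01 in WT. The largest ratios in WT were those of *SPT16* and *SSRP1*, the subunits of the FACT complex, with of 0.30 and 0.20 in *aph-1* and 0.75 and 0.53 in WT, and of *FAS2* and *NAP1;2*, with −0.18 and −0.36 in *aph-1* and −0.36 each in WT.

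Marker genes of tissues moved in the same comparisons. The 7 meristem marker genes summed to 15.7 FPKM in ABA-treated and 26.9 FPKM in untreated *aph-1*, and to 15.7 FPKM in ABA-treated and 23.2 FPKM in untreated WT, and of these the stem-cell genes *WUS* and *CLV3* were at or under 0.473 FPKM in the 4 groups. *ANT*, an activator of organ growth, was at 6.82 and 16.4 FPKM in ABA-treated and untreated *aph-1*, and at 6.36 and 11.5 FPKM in ABA-treated and untreated WT, the largest part of the difference in the sum. The other meristem markers with a mean of at least 1 FPKM had smaller log2 ratios. These were −0.21 in *aph-1* and −0.16 in WT for *STM*, and 0.02 in *aph-1* and −0.48 in WT for *WOX5*. Below that level, *PLT1* was lower with ABA, with log2 ratios of −0.95 in *aph-1* and −1.17 in WT. *PLT2* was lower as well, with −0.81 in *aph-1* and −0.54 in WT. *CLV3* was higher with ABA, at 0.302 and 0.0986 FPKM in ABA-treated and untreated *aph-1*. In WT *CLV3* was at 0.473 FPKM with ABA and 0.132 FPKM without. The 3 leaf marker genes summed to 6697 FPKM in ABA-treated and 13673 FPKM in untreated *aph-1*, and to 4504 FPKM in ABA-treated and 11067 FPKM in untreated WT. The 4 root marker genes summed to 42.0 FPKM in ABA-treated and 51.4 FPKM in untreated *aph-1*, and to 35.7 FPKM in ABA-treated and 45.5 FPKM in untreated WT. The part of tissue makeup in the histone values was not tested.

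Between the genotypes, the histone genes differed little. Without ABA, 39 of the 43 members (90.7%) were below WT in *aph-1*, beside 56.8% of all genes, with a median log2 ratio of −0.19, beside −0.05 over all genes. Past 2-fold, 1 member (2.33%) was lower and 1 was higher, against a background of 0.901% lower and 0.143% higher. The summed FPKM of all genes was itself lower in untreated *aph-1*. When each group was rescaled to the same sum, 32 of the 43 members (74.4%) were below WT, beside 44.4% of all genes. After the median ratio of all genes was subtracted, 36 of the 43 (83.7%) were, beside 50.0% of all genes, a share set by the subtraction. The class sums of H4, H3.1 and H2A.Z were 0.868, 0.874 and 0.875 of those in WT, and those of H2A, H3.3 and H2B were 0.897, 0.899 and 0.916. H2A.W was near WT, at 1.02, where *HTA6* was higher in *aph-1* and the other 2 genes lower. After rescaling, the ratios of the first 6 sums lay between 0.924 and 0.974.

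**Figure D4:**
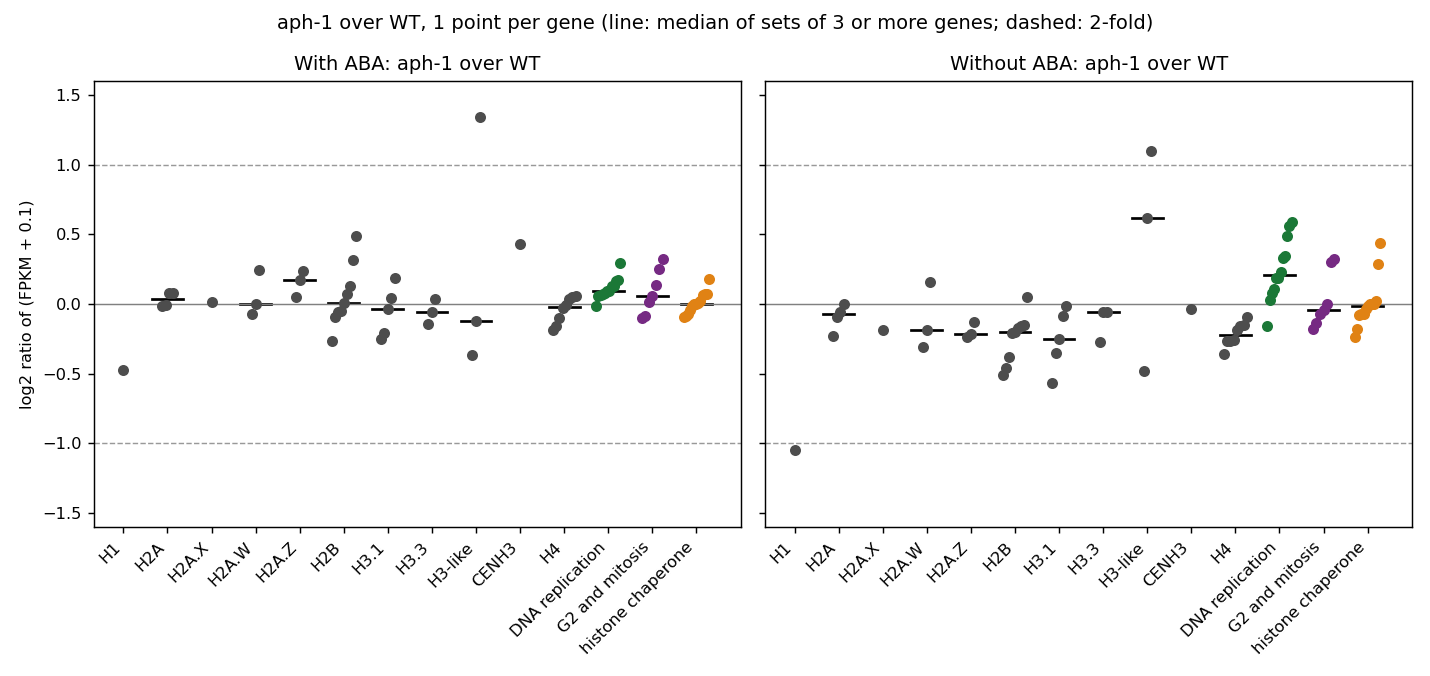
Log2 ratio of *aph-1* over WT (vertical axis, FPKM with 0.1 added) for each gene with a mean of at least 1 FPKM, by histone class and for 3 other gene lists, with ABA (left) and without ABA (right), with medians as lines and 2-fold as dashed lines. Without ABA, on the deposited scale, the H2A, H2A.Z, H3.1, H3.3 and H4 points lie below 0 and 11 of the 12 DNA replication points above it. *HTR11*, an H3-like gene, is the highest point among the members, at 1.34 with ABA.

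The DNA replication genes lay on the other side of 0 in this comparison. Of the 12, 11 (91.7%) were above WT in untreated *aph-1*, beside 43.2% of all genes, with a median of 0.21, and *PCNA2* was the exception at −0.16. *PCNA1* had a ratio of 0.10 and *RNR1* one of 0.33. The G2 and mitosis genes had a median of −0.04, with 4 of 7 (57.1%) below WT, and the chaperone genes one of −0.01, with 9 of 13 (69.2%) below WT, beside 56.8% of all genes. The H3.1 gene *HTR13* had the lowest ratio among the replication-linked members, −0.57, at 49.3 FPKM in untreated *aph-1* and 73.0 FPKM in untreated WT. *HTB10*, whose locus overlaps that of *HTA12*, followed at −0.51, at 4.62 FPKM in untreated *aph-1* and 6.63 FPKM in untreated WT. *HTB7* (AT3G09480) came next at −0.46, at 11.8 FPKM in untreated *aph-1* and 16.3 FPKM in untreated WT.

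*H1.3* was the member that was at least 2-fold lower in untreated *aph-1*, at 4.72 FPKM against 9.87 FPKM in untreated WT (log2 ratio −1.05). It sat at the limit, and a pseudocount of 1 FPKM, rescaling or centring each brought it under 2-fold. With ABA it was also lower in *aph-1*, at 73.8 FPKM against 102 FPKM in WT (−0.47).

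*HTR11* (AT5G65350) was the member that was at least 2-fold higher in *aph-1*, in both conditions. Its mean level is under 5 FPKM, so a filter at that level left it out of both comparisons, and a pseudocount of 1 FPKM brought the untreated ratio under 2-fold. This H3 gene is described as histone 3 11 and lies directly beside the H3.1 gene *HTR1*. It was at 4.28 FPKM in ABA-treated *aph-1* against 1.63 FPKM in ABA-treated WT, and at 7.57 FPKM in untreated *aph-1* against 3.48 FPKM in untreated WT. The 2 *aph-1* values were thus above both WT values, while *HTR1* was lower in *aph-1*, at 229 FPKM against 265 FPKM in WT with ABA and at 315 FPKM against 402 FPKM in WT without ABA. *HTR11* kept a lower value with ABA within each genotype, with log2 ratios of −0.81 in *aph-1* and −1.05 in WT. Its level was far under that of *HTR1* in the 4 groups, and whether reads of near-identical H3 genes reached it was not tested.

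With ABA, the members of *aph-1* and WT were close to each other. The median log2 ratio was 0.01, beside −0.01 over all genes, and 20 of the 43 members (46.5%) were below WT, beside 52.8% of all genes. Past 2-fold, 0 members were lower and 1, *HTR11*, was higher, against a background of 0.27% lower and 0.356% higher. The class sums of *aph-1* were between 0.952 and 1.08 of those of WT for H2A, H2A.W, H2A.X, H2A.Z, H2B, H3.1, H3.3 and H4. *HTR12* was higher in *aph-1*, at 5.44 FPKM against 4.01 FPKM in WT, and *HTB6* was at 34.9 FPKM in *aph-1* against 24.9 FPKM in WT, both by less than 2-fold.

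The log2 ratio of ABA over control was larger in *aph-1* than in WT for 40 of the 43 members, beside 55.0% of all genes, with a median difference of 0.20, beside 0.03 over all genes. For most members this means a smaller drop with ABA in *aph-1*. The difference equals the log2 ratio of *aph-1* over WT with ABA less the one without ABA, and it was not tested. The medians of these ratios were 0.01 with ABA and −0.19 without, so the lower untreated values of *aph-1* described above enter it. This did not hold for each member. *HTR12* had 0.43 with ABA and −0.04 without, and *HTA6* was above WT in both conditions, at 0.25 and 0.16. The exceptions were *HTB11* (AT3G46030), with −0.47 in *aph-1* and −0.32 in WT, *HTR2*, with −0.61 and −0.59, and *HTR14*, whose ratio was smaller by 0.74 on the log2 scale in *aph-1*. For the DNA replication list the difference had the other sign, with a median of −0.13.

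The description rule left out 5 histone genes of the 50 known ones. Besides *H1.1* and *H1.2* they were the H2A.X gene *HTA3* (AT1G54690), the H2B gene *HTB2* (AT5G22880) and the H3 gene *HTR7* (AT1G75610). *HTB2* was at 257 and 399 FPKM in ABA-treated and untreated *aph-1*, and at 234 and 409.6 FPKM in ABA-treated and untreated WT. *HTA3* was at 59.1 and 115 FPKM in ABA-treated and untreated *aph-1*, and at 60.9 and 116 FPKM in ABA-treated and untreated WT, so the H2A.X genes differed, with a lower value with ABA for *HTA3* (log2 ratios −0.95 and −0.92) and nearly none for *HTA5* (0.00 and −0.20, the sign in *aph-1* changing with the scaling). *HTR7* was at up to 0.0406 FPKM. Adding these genes left the median log2 ratio of ABA over control in WT at −0.50.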

How the data were processed

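RNA of whole seedlings was sequenced by the authors in 12 libraries, 3 for each of 4 groups. Per their methods, paired reads were trimmed with Trimmomatic, mapped to TAIR10 with HISAT and counted with htseq-count. The values deposited by the authors are FPKM, 1 per gene and group. The unit was inferred from a sheet label that names Cuffdiff, a tool absent from the methods, and the way the 3 libraries were combined, the treatment of multiply mapped reads and the depth per library are not stated in the sources used here. The deposited table also holds the authors' own log2 ratios and yes or no calls for 4 comparisons, which were not used. No per-sample columns were present, so the edgeR test of the methods could not be run and no p-value is given.

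Log2 ratios were computed with 0.1 FPKM added, over genes with a mean of at least 1 FPKM across the 4 groups, and counted at 2-fold. The methods state 3-fold, which was tried as an alternative. Classes were assigned from a table of known histone gene identifiers. Symbols and gene order were read from a RefSeq table of assembly TAIR10.1, which held 32815 of the 33559 identifiers and 48 of 48 members, and its coordinates were not printed. The members, lists and limits were chosen with earlier results of these data known. Any member could be named, with full values for the highest member of each class, for members past 2-fold and for H1, H2A.Z, H3.1, H3.3 and CENH3. Other lists gave up to 4 genes with the largest ABA ratio in WT. Markers below the filter and genes overlapping a member were named after their values were seen. Alternatives were other pseudocounts, filters, scalings, folds and member sets. The counting code was tested on simulated data. Promoter motifs and protein identity were not analysed here. Python 3.11.15, numpy 2.4.6, pandas 2.3.3 and matplotlib 3.10.9 were used.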

Additional observations from a re-analysis of the deposited data

How the results depend on the processing

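No paired analysis was possible because the table holds 1 value per group and no value per library, and for the same reason no replicate could be left out. Summing genes with identical proteins was not run, since no protein sequences were used. The 4 median log2 ratios of the members kept their sign under the alternatives run. For ABA over control in WT, the median was −0.50, and −0.37 with no filter on low values and −0.40 with each class summed into 1 value, which was added once the data had been seen. In *aph-1* it was −0.30, and −0.42 both with a mean of at least 5 FPKM and after rescaling to the same sum, which moved the median of all genes by −0.11. Counts at the 2-fold limit were less stable. With ABA in WT, the lower members numbered 7, against 4 with a pseudocount of 1 FPKM, 20 at 1.5-fold and 0 at 3-fold, and the higher members 2, against 1 with a mean of at least 5 FPKM. With ABA in *aph-1*, they numbered 0 lower, against 1 with no filter and 14 at 1.5-fold, and 3 higher, against 1 with a mean of at least 5 FPKM. For untreated *aph-1* over WT, the 1 higher member became 0 with a pseudocount of 1 FPKM, with a mean of at least 5 FPKM and at 3-fold, and 2 at 1.5-fold. The 1 lower member became 0 with a pseudocount of 1 FPKM, after rescaling, after centring and at 3-fold. With ABA, the 1 higher member became 0 with a mean of at least 5 FPKM and at 3-fold, and 0 lower became 1 with no filter. The causes were not tested beyond the construction of each alternative. The depth behind low levels, as of *HTR6* and *HTR14*, is unknown, and the filter at 5 FPKM left both genes out.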
